A study of Mus musculus with 12 samples.

Results

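Genes that mark macrophages and their alternative activation were measured by RNA-seq in mouse skin. They are the 9 genes *Cd68*, *Cd163*, *Mrc1*, *Chil3*, *Retnla*, *Adgre1*, *Csf1r*, *Lyz2* and *Clec10a*, taken by symbol from the 52636 genes of the deposited count table, and all 9 passed the filter on low counts. *Cd68* and *Cd163* are named in the study, which stained their proteins in skin sections, and the rest are other macrophage genes. Full-thickness dorsal skin of C57BL/6 mice aged 3 months was taken after 14 days of treatment, from 4 groups of 3 mice each. WT mice carry floxed alleles without Cre, and in KO mice the floxed *Cdc42* gene is deleted by Cre under the K5 promoter, which is active in basal keratinocytes. The WT and KO groups received the vehicle, normal saline with HPMC, on shaved skin, and mice of the KO+ZnO NPs and WT+ZnO NPs groups received zinc oxide nanoparticles in that vehicle. KO mice serve as a model of a disturbed epidermal barrier.

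Macrophages live in the dermis, where they take up debris, iron and dying cells, and they depend on the receptor Csf1r and its ligands Csf1 and Il34. Some arise from monocytes that enter from the blood through Ccr2, and others were seeded before birth and renew in place. Interleukins 4 and 13 act through Il4ra and the factor Stat6 to raise a group of genes that includes *Chil3*, *Retnla*, *Mrc1* and *Clec10a*, a state called alternative or M2 activation.

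The libraries held 21076320 to 28867802 counts. Levels are given as CPM, a gene's share of the counts of a library, scaled by TMM factors. *Cdc42*, the deleted gene, lay at 606 to 628 CPM in WT and at 415 to 464 in KO. It lay at 311 to 350 CPM in skin labelled WT+ZnO NPs, below all KO libraries and against that label, and at 313.5 to 453 in KO+ZnO NPs. The study states that its KO mice were female and gives no sex for its WT mice. Y-linked transcripts exceeded *Xist* in 5 libraries, which are all 3 labelled WT+ZnO NPs and, against that statement, KO replicate 1 and KO+ZnO NPs replicate 1. For skin labelled WT+ZnO NPs, sex, genotype by the *Cdc42* level and treatment therefore cannot be told apart. The counts of the 9 genes in KO against WT and in KO+ZnO NPs against KO are given with and without the libraries concerned, and the other comparisons need skin labelled WT+ZnO NPs. The labelled tissue was checked against skin markers, and the summed basal keratinocyte markers were at 4162 to 11750 CPM and the summed fibroblast markers at 7049 to 37280. The keratinocyte marker *Krt2* was at most 6.13 CPM in any library, and in KO+ZnO NPs replicate 2 the fat cell markers *Plin1* and *Adipoq* were at 2.77 and 6.70 CPM, with *Fabp4* giving 1001 of the 1045 CPM that its fat cell markers summed to.

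Since the 9 genes shared the sign of their log2 fold changes after ZnO NPs, the sequence before the start of 3 of them is shown, for 2 genes of alternative activation and for the most abundant of the 9. The windows come from RefSeq on GRCm38.p6, read 5′ to 3′ on the strand of the gene, and stop before the first base that GENCODE annotates for the gene. They are chr16:48842359-48842550 on the plus strand for *Retnla* and chr3:106167565-106167814 and chr10:117282322-117282522 on the minus strand for *Chil3* and *Lyz2*. Capitals mark ACTTCCT, which is the AGGAAGT core bound by PU.1 read on the other strand, and the spaced TTC and GAA pairs bound by STAT factors.
Retnla: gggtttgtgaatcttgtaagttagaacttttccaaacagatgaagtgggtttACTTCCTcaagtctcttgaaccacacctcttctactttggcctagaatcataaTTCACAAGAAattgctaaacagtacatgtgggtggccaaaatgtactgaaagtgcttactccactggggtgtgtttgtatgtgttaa
Chil3: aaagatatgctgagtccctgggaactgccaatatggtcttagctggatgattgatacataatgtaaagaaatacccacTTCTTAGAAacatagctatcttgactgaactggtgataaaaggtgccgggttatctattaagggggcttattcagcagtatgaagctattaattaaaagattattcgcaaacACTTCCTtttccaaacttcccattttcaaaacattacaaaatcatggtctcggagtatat
Lyz2: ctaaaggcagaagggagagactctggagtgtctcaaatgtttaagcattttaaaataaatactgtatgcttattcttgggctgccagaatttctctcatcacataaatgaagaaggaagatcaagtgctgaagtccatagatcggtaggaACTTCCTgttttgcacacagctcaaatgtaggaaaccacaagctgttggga

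RefSeq windows were matched for 6 of the 9 genes, *Mrc1*, *Chil3*, *Cd163*, *Lyz2*, *Cd68* and *Retnla*. PU.1, encoded by *Spi1*, is a factor that macrophages need to form. AGGAAGT was found on either strand within 250 bases before the RefSeq start in 4 of the 6, *Chil3*, *Lyz2*, *Mrc1* and *Retnla*, and in 7.69% of all 32851 windows of that length. The shorter GAGGAA was in 3 of the 6 and in 23.3% of all windows, and GAGGAAG, which contains it and can overlap AGGAAGT, was in 2 of the 6 and in 10.6%. The spacing TTCNNNNGAA, which STAT6 prefers, was present in *Retnla* alone, against 5.85% of all windows. It lay 145 to 136 bases before the RefSeq start, which is downstream of the end of the printed *Retnla* sequence. *Chil3* alone held TTCNNNGAA, at 172 to 164 bases before the RefSeq start, against 7.02% of all windows. TATAAA was found in 1 of the 6, *Retnla*, in the part of the window that is not printed, and in 12.4% of all windows. These matches describe letters in a window and no binding was measured.

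Compared per kilobase of exon, the 9 genes spanned a wide range in WT skin. *Lyz2* had the highest level at 1350 ± 245 CPM per kb (SD, n = 3), followed by *Retnla* at 541 ± 306, *Cd68* at 211 ± 2.44, *Chil3* at 153 ± 93.0, *Adgre1* at 90.4 ± 17.9, *Mrc1* at 83.5 ± 36.2, *Clec10a* at 78.6 ± 22.1, *Csf1r* at 63.8 ± 8.61 and *Cd163* at 45.2 ± 21.7. Among neighbours in this order, *Lyz2* lay above *Retnla* in every pair of libraries, and the other neighbours overlapped. *Lyz2* made up 34.5% to 61.3% of the summed CPM of the 9 genes in the 12 libraries.

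**Figure D1:**
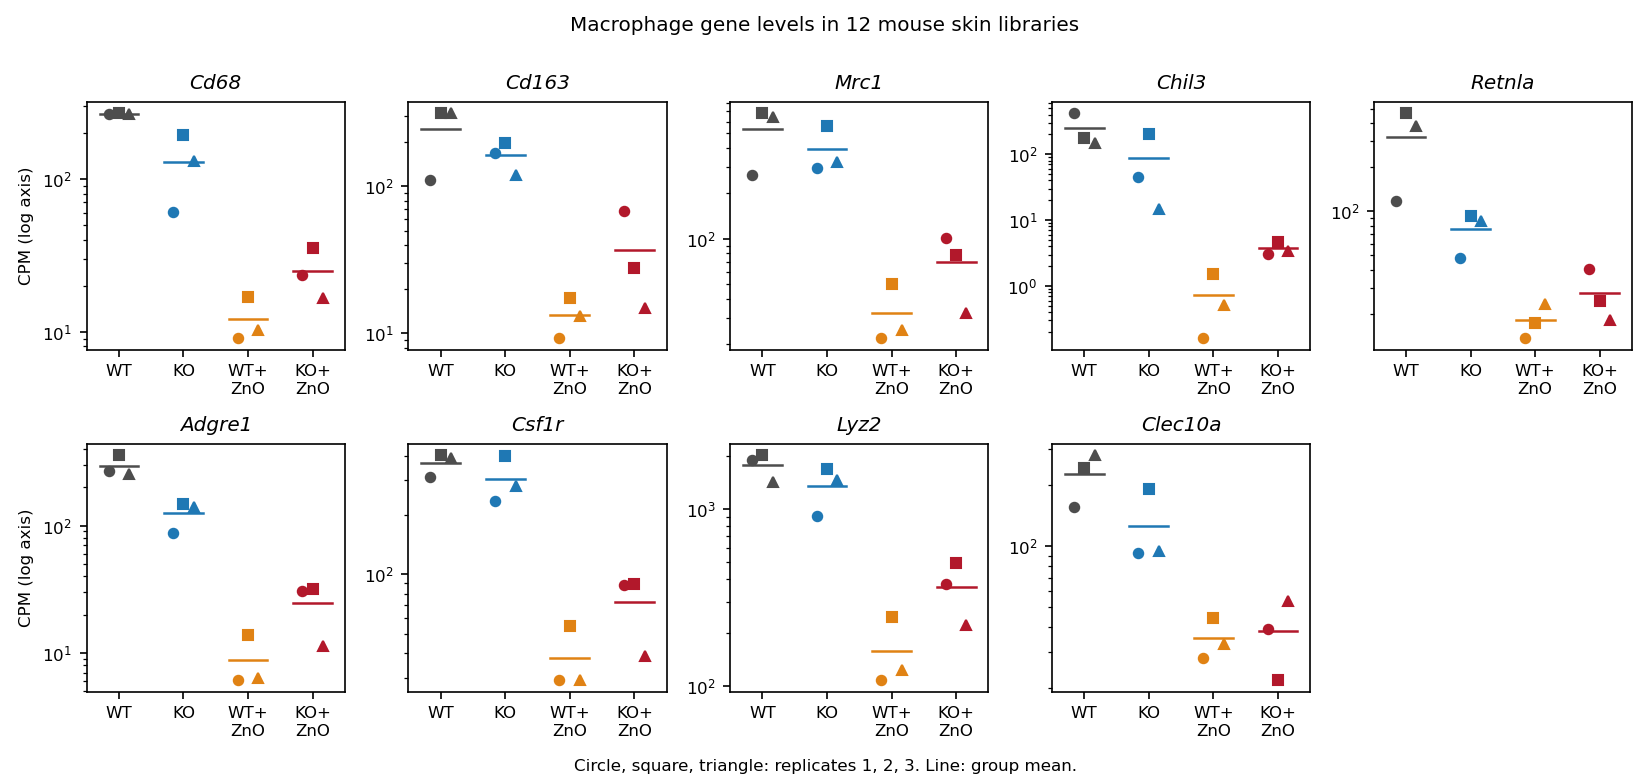
Each panel plots the level of a gene in CPM on a log axis, with its own scale, in the 12 libraries by group. Circles, squares and triangles are replicates 1, 2 and 3 and lines are group means. In all 9 panels the 3 libraries labelled WT+ZnO NPs lie below the 3 WT libraries, and the 3 KO+ZnO NPs libraries lie below the 3 KO libraries.

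*Csf1r*, the receptor for Csf1 and Il34 on which macrophages depend, lies on chromosome 18 of GRCm38 from 61100598 to 61132149. It stood at 312, 403 and 390.3 CPM in WT and at 29.3, 54.7 and 29.1 in skin labelled WT+ZnO NPs. It stood at 234, 398 and 282 CPM in KO and at 88.9, 89.2 and 38.8 in KO+ZnO NPs. WT and KO overlapped, while each ZnO NPs group lay wholly below its vehicle group. *Csf1r* fell by 3.29 ± 0.38 (SE) on the log2 scale in skin labelled WT+ZnO NPs against WT, with an adjusted p of 0.000116 by the edgeR quasi-likelihood test. It fell by 2.08 ± 0.36 in KO+ZnO NPs against KO, with an adjusted p of 0.0089. In these bulk samples, fewer macrophages and less RNA of a gene per macrophage cannot be told apart, which holds for every result that follows. *Hmgxb3* overlaps 15.1% of the exon bases of *Csf1r* on the opposite strand, and the strand setting of the counting is not stated.

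Csf1r has 2 known ligands. *Csf1*, made by many cells of the dermis, was at 110.3, 149 and 143 CPM in WT, at 26.8, 35.7 and 25.2 in skin labelled WT+ZnO NPs, at 74.6, 108 and 79.8 in KO and at 25.5, 26.6 and 42.5 in KO+ZnO NPs. It fell by 2.20 ± 0.24 on the log2 scale in skin labelled WT+ZnO NPs against WT (edgeR adjusted p 8.65e-05) and by 1.47 ± 0.24 in KO+ZnO NPs against KO (0.00755). *Il34*, which keratinocytes make, was at 34.1, 26.6 and 26.7 CPM in WT, at 17.5, 12.2 and 12.6 in skin labelled WT+ZnO NPs, at 38.5, 53.4 and 35.4 in KO and at 27.3, 27.1 and 30.8 in KO+ZnO NPs. All KO libraries lay above WT for *Il34*, with a log2 fold change of 0.54 ± 0.19 that did not pass (edgeR adjusted p 0.105). *Il34* fell by 1.05 ± 0.19 in skin labelled WT+ZnO NPs against WT (0.00182) and gave -0.58 ± 0.19 in KO+ZnO NPs against KO (0.0658), both without overlap. It was 1.01 ± 0.19 higher on the log2 scale in KO+ZnO NPs than in skin labelled WT+ZnO NPs, without overlap (0.0343).

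*Adgre1*, which encodes the surface receptor F4/80 of mature macrophages, lies on chromosome 17 from 57358691 to 57483527. Its levels were 267, 359 and 252 CPM in WT and 6.08, 13.9 and 6.37 in skin labelled WT+ZnO NPs. They were 88.1, 149 and 139 CPM in KO and 30.5, 32 and 11.3 in KO+ZnO NPs. WT, KO and KO+ZnO NPs did not overlap with each other, in that order, and skin labelled WT+ZnO NPs overlapped only with KO+ZnO NPs. *Adgre1* fell by 5.06 ± 0.49 on the log2 scale in skin labelled WT+ZnO NPs against WT (edgeR adjusted p 4.64e-05) and by 2.35 ± 0.43 in KO+ZnO NPs against KO (0.01). The log2 fold change of -1.22 ± 0.41 in KO against WT did not pass (0.0916).

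*Cd68*, a glycoprotein of phagocyte lysosomes and the macrophage marker stained in the study, lies on chromosome 11 from 69664213 to 69666153. The 3 WT libraries were nearly alike at 264, 269 and 264 CPM, and skin labelled WT+ZnO NPs held 9.04, 16.9 and 10.3. KO libraries held 60.65, 194 and 129.6 CPM and KO+ZnO NPs libraries held 23.5, 35.1 and 16.5. Every KO library was lower than every WT library, and the 2 ZnO NPs groups overlapped slightly. *Cd68* fell by 4.46 ± 0.45 on the log2 scale in skin labelled WT+ZnO NPs against WT (edgeR adjusted p 5.91e-05) and by 2.36 ± 0.41 in KO+ZnO NPs against KO (0.00891). KO against WT gave -1.05 ± 0.39, which did not pass (0.121).

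*Lyz2*, the lysozyme that macrophages and neutrophils secrete, lies on chromosome 10 from 117277331 to 117282321 and is the most abundant of the 9 genes. It reached 1899, 2020 and 1412 CPM in WT and 108, 244.5 and 123.5 in skin labelled WT+ZnO NPs. It reached 914, 1675 and 1456 CPM in KO and 376, 497 and 221 in KO+ZnO NPs. WT and KO overlapped, and the ZnO NPs groups lay far below their vehicle groups. *Lyz2* fell by 3.49 ± 0.42 on the log2 scale in skin labelled WT+ZnO NPs against WT (edgeR adjusted p 0.000142) and by 1.89 ± 0.39 in KO+ZnO NPs against KO (0.0146). Other genes hold 15.4% of the 50-base stretches of *Lyz2*. Its copy *Lyz1*, the lysozyme of intestinal Paneth cells, shares more of them than any other gene, so their counts are not fully separate. *Lyz1* was at 43.6 to 96.1 CPM in WT, 14.4 to 30.3 in KO, 10.4 to 28.8 in skin labelled WT+ZnO NPs and 17.8 to 30.6 in KO+ZnO NPs. In KO against WT *Lyz1* fell by 1.63 ± 0.44 on the log2 scale (0.0489), close to the threshold, while *Lyz2* gave -0.40 ± 0.38 (0.554).

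*Mrc1*, the mannose receptor CD206, is carried by dermal macrophages and rises with interleukin 4. It lies on chromosome 2 from 14229392 to 14332057. It was at 266, 685 and 644 CPM in WT, at 21.8, 50.4 and 24.9 in skin labelled WT+ZnO NPs, at 297, 564 and 323 in KO and at 101, 78.01 and 32.2 in KO+ZnO NPs. WT replicate 1 was below every KO library, so WT and KO overlapped. *Mrc1* fell by 4.04 ± 0.56 on the log2 scale in skin labelled WT+ZnO NPs against WT (edgeR adjusted p 0.000323) and by 2.48 ± 0.52 in KO+ZnO NPs against KO (0.0152).

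*Cd163*, the scavenger receptor that takes up hemoglobin bound to haptoglobin and the other marker stained in the study, lies on chromosome 6 from 124304656 to 124330527. It was at 110.2, 314 and 316.5 CPM in WT and at 9.24, 17.5 and 13.2 in skin labelled WT+ZnO NPs. It was at 169, 199 and 119 CPM in KO and at 67.9, 27.9 and 14.8 in KO+ZnO NPs. WT replicate 1 again lay below the KO libraries. *Cd163* fell by 4.22 ± 0.60 on the log2 scale in skin labelled WT+ZnO NPs against WT (edgeR adjusted p 0.000394) and by 2.14 ± 0.55 in KO+ZnO NPs against KO (0.0295), and KO against WT gave -0.61 ± 0.53 (0.513). The call in KO+ZnO NPs against KO was lost on the 6 libraries compared and without KO replicate 1, 2 or 3 or KO+ZnO NPs replicate 2 or 3, and its adjusted p ranged from 0.00077 to 0.0976 over 22 alternatives. *Hmox1*, which breaks down the heme that Cd163 brings in, was at 132 to 342 CPM in WT, 80.4 to 137.5 in KO, 15.6 to 30.2 in skin labelled WT+ZnO NPs and 19.7 to 62.8 in KO+ZnO NPs. It fell by 3.53 ± 0.50 in the first ZnO NPs comparison (0.000357) and gave -1.44 ± 0.46 in KO+ZnO NPs against KO (0.0581).

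*Clec10a*, a lectin of dermal macrophages and dendritic cells that binds galactose, lies on chromosome 11 from 70156197 to 70170834. Its levels were 157, 244 and 282 CPM in WT, 28.2, 44.4 and 32.9 in skin labelled WT+ZnO NPs, 92.3, 192.5 and 94.8 in KO and 39.0, 21.9 and 53.6 in KO+ZnO NPs. The 2 ZnO NPs groups overlapped. *Clec10a* fell by 2.70 ± 0.40 on the log2 scale in skin labelled WT+ZnO NPs against WT (edgeR adjusted p 0.000486) and by 1.73 ± 0.38 in KO+ZnO NPs against KO (0.0184). The latter call was lost in the libraries without Y-linked transcripts, on the 6 libraries compared and without KO replicate 2 or KO+ZnO NPs replicate 2. Over 22 alternatives its log2 fold change ranged from -2.033 to -1.281 and its adjusted p from 0.00023 to 0.0731. Other genes hold 9.02% of the 50-base stretches of *Clec10a*, its copy *Mgl2* more than any other. *Mgl2* was at 35.2, 39.1 and 72.6 CPM in WT, 60.5, 107 and 112 in KO, 12.9, 17.1 and 11.2 in skin labelled WT+ZnO NPs and 23.8, 18.1 and 19.8 in KO+ZnO NPs. *Mgl2* gave 0.93 ± 0.31 in KO against WT (0.087), where *Clec10a* gave -0.85 ± 0.38 (0.181). It fell by 1.83 ± 0.32 (0.0012) and 2.18 ± 0.32 (0.00574) in the ZnO NPs comparisons.

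*Retnla*, a secreted protein also called FIZZ1 or RELM-alpha that interleukin 4 induces in mouse macrophages, lies on chromosome 16 from 48842551 to 48844461. It was at 118, 470.4 and 384 CPM in WT and at 48.1, 92.3 and 85.7 in KO, so that every KO library lay below every WT library. It was at 13.6, 17.2 and 23.3 CPM in skin labelled WT+ZnO NPs and at 40.1, 24.4 and 18.2 in KO+ZnO NPs. *Retnla* was the gene of the 9 that passed in KO against WT, where it fell by 2.10 ± 0.48 on the log2 scale, 4.30-fold, with an edgeR adjusted p of 0.0274. That call was lost between the 3 WT and 2 KO libraries that hold no Y-linked transcripts (log2 fold change -1.86, adjusted p 0.111). It was also lost without WT replicate 2 (-1.74, 0.112), WT replicate 3 (-1.97, 0.0789), KO replicate 1 (-1.87, 0.087), KO replicate 2 (-2.26, 0.0578) or KO replicate 3 (-2.21, 0.0718), and adjusted p ranged from 0.000211 to 0.112 over its 22 alternatives. The gene fell by 4.17 ± 0.53 in skin labelled WT+ZnO NPs against WT (0.000204), and KO+ZnO NPs against KO gave -1.45 ± 0.48 (0.0634). Fat cells also express *Retnla*, and the summed white adipocyte markers were at 4575 to 6526 CPM in WT, 1676 to 3286 in KO, 658 to 1452 in skin labelled WT+ZnO NPs and 1045 to 4024 in KO+ZnO NPs. Their part in the result was not tested.

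*Chil3*, the chitinase-like protein Ym1 of alternatively activated macrophages and of neutrophils, lies on chromosome 3 from 106147554 to 106167564. It was at 425, 179 and 147 CPM in WT and at 0.16, 1.51 and 0.514 in skin labelled WT+ZnO NPs. It was at 44.8, 202 and 14.5 CPM in KO and at 3.05, 4.69 and 3.44 in KO+ZnO NPs. The spread within KO was wide, and WT replicate 1, low for *Mrc1*, *Cd163* and *Retnla*, was the highest of all libraries here. *Chil3* had the largest log2 fold changes of the 9 in both ZnO NPs comparisons and fell by 8.45 ± 1.16 (edgeR adjusted p 0.000309) and 4.55 ± 0.95 (0.015). In KO+ZnO NPs against KO its log2 fold change ranged from -5.055 to -2.979 over 21 alternatives. That call was lost on the 6 libraries compared and without KO replicate 2. *Chil3* was the member whose KO+ZnO NPs libraries all lay above those labelled WT+ZnO NPs, with a log2 fold change of 2.38 ± 1.01 that did not pass (0.179). Other genes hold 26.9% of the 50-base stretches of *Chil3*, its copy *Chil4* more than any other. *Chil4* held 39, 1 and 2 counts in WT, 0, 0 and 1 in skin labelled WT+ZnO NPs, 6, 788 and 35 in KO and 0 in every KO+ZnO NPs library. KO replicate 2 thus held most of the *Chil4* counts. It also had the highest summed neutrophil markers, 680.4 CPM against 144 and 160.3 in the other KO libraries, 251 to 320 in WT, 6.12 to 76.5 in skin labelled WT+ZnO NPs and 19.3 to 71.2 in KO+ZnO NPs, and the part of neutrophils in the *Chil3* and *Lyz2* results was not tested.

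*Nos2*, the inducible nitric oxide synthase of classical activation, stayed between 0.655 and 2.45 CPM in all 12 libraries and passed in none of the comparisons.

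Of the receptor and the factor upstream of these genes, *Il4ra* was at 101 to 216 CPM in WT, 107 to 227.5 in KO, 29.1 to 53 in skin labelled WT+ZnO NPs and 53.6 to 121 in KO+ZnO NPs. It fell by 1.99 ± 0.40 on the log2 scale in skin labelled WT+ZnO NPs against WT (edgeR adjusted p 0.00264) and gave 0.04 ± 0.38 in KO against WT (0.963) and -0.94 ± 0.38 in KO+ZnO NPs against KO (0.118), where the groups overlapped. *Stat6* varied little within groups, with 168 to 184.5 CPM in WT, 126 to 149 in KO, 81.2 to 91.1 in skin labelled WT+ZnO NPs and 89.6 to 103 in KO+ZnO NPs. It fell in each of the 3 comparisons against a vehicle group, by 0.39 ± 0.11 in KO against WT (0.0494), 1.01 ± 0.11 in skin labelled WT+ZnO NPs against WT (7.19e-05) and 0.51 ± 0.11 in KO+ZnO NPs against KO (0.0149).

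**Figure D2:**
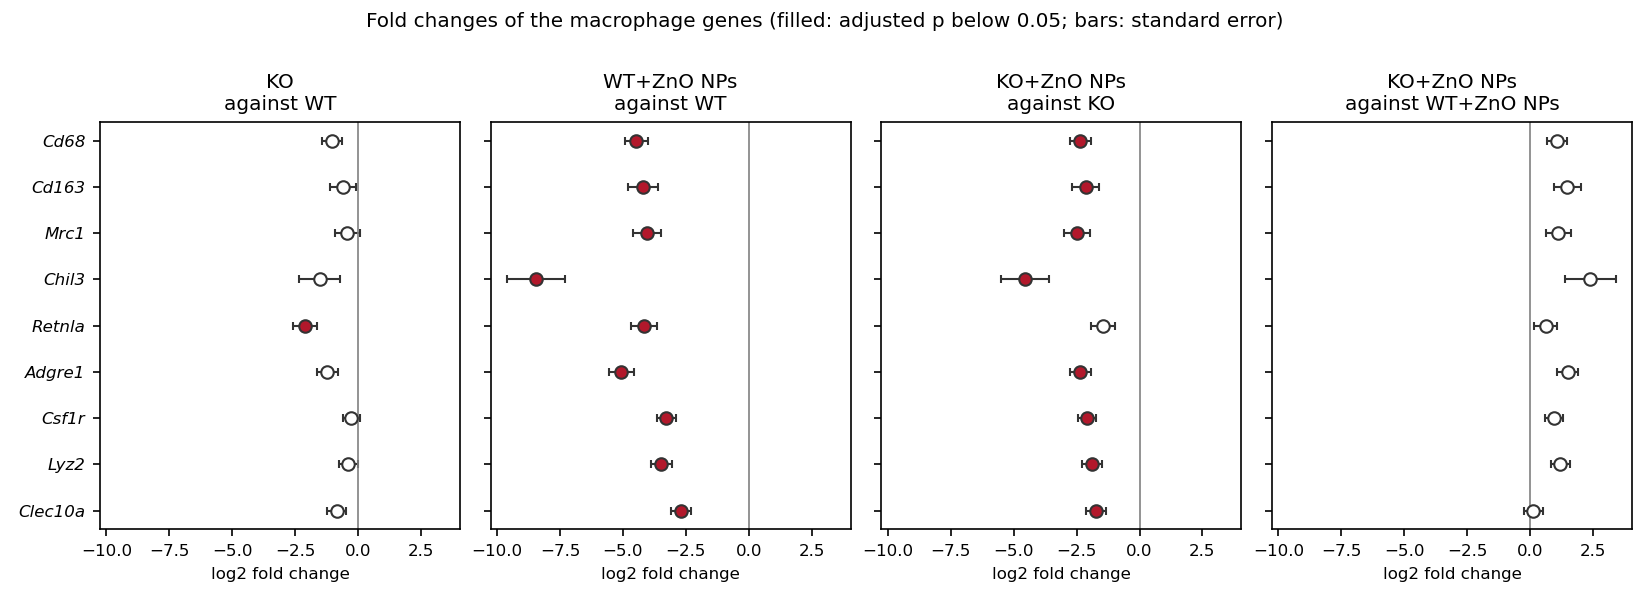
Log2 fold changes of the 9 genes in 4 comparisons, with bars for the standard error and filled points for an edgeR adjusted p below 0.05. The points of the ZnO NPs comparisons against WT and KO all lie below 0, those of KO+ZnO NPs against skin labelled WT+ZnO NPs all lie above 0 with none filled, and those of KO against WT lie below 0 with *Retnla* alone filled.

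The first comparison asks whether loss of *Cdc42* in keratinocytes went with a different level of macrophage genes in skin that received the vehicle. Of the 9 genes, 1 fell, *Retnla*, and 0 rose, where 3.58% of the 18822 genes tested were lower and 4.61% higher. DESeq2 called 2 of the 9, with 3036 calls over all genes in place of 1540. The groups did not overlap for *Cd68*, *Adgre1* and *Retnla*, as for 38.5% of all genes. The median log2 fold change of the 9 was -0.85, beside 0.01 over all genes. In only the 6 libraries of WT and KO edgeR also called *Adgre1*, as it did without KO+ZnO NPs replicate 3, and the counts were then 2, with 2794 and 2060 calls over all genes in place of 1540. Without KO replicate 2, *Chil3* was called in place of *Retnla*. Without any library labelled WT+ZnO NPs the count was 1. It was 0 in the libraries without Y-linked transcripts and also without WT replicate 2, WT replicate 3, KO replicate 1 or KO replicate 3. Calls over all genes were 377 to 785 in these settings.

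Other macrophage genes passed in KO against WT, from lists chosen with results of these data known. Of 25 core macrophage genes, 3 fell and 0 rose, with a median log2 fold change of -0.53. The leading ones were *Fcgr1*, the high-affinity IgG receptor, which fell by 3.25 ± 0.33 on the log2 scale (edgeR adjusted p 0.000642), and *Aif1*, the cytoskeletal protein Iba1, which fell by 1.497 ± 0.26 (0.0088). *Fcgr1* went from 95.5 to 221 CPM in WT to 12.8 to 22.0 in KO. Of 16 genes of resident dermal macrophages, 4 fell, led by *Timd4*, a receptor for dying cells (-3.61 ± 0.49, 0.00241), and *Folr2*, a folate receptor (-2.45 ± 0.47, 0.0138). Among 15 tested genes for Csf1r ligands and monocyte recruitment, *Plac8*, abundant in monocytes, fell by 3.18 ± 0.39 (0.00151), and the chemokine *Cx3cl1* rose by 0.90 ± 0.24 (0.0447). The summed monocyte markers were at 538 to 1064 CPM in WT and 92.8 to 206 in KO. The sums of the core list, at 4941 to 5705 and 2692 to 5269, and of the resident list, at 1345 to 3329 and 1443 to 1776, overlapped, the lowest WT value of the latter being that of WT replicate 1.

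Of 20 further alternative activation genes 2 rose and 1 fell in KO, where 4.61% and 3.58% of all genes did, and 12 had a positive log2 fold change, with a median of 0.35. *Ccl17*, a chemokine for T cells, rose by 3.19 ± 0.57 on the log2 scale, from 0.255 to 0.881 CPM in WT to 2.34 to 6.91 in KO (edgeR adjusted p 0.0103). *Pdcd1lg2*, the PD-1 ligand PD-L2, rose by 2.89 ± 0.58 (0.0161), and *Stat6* was the gene that fell. Both of those that rose are also made by dendritic cells. Of 7 dendritic and Langerhans cell markers 1 rose, *Itgax* (3.20 ± 0.56, 0.00917), from 11.6 to 16.7 CPM in WT to 40.9 to 190.9 in KO, and 0 fell. That gene, which macrophages also express, made up most of the gap in the sum of the 7, at 49.7 to 80.5 CPM in WT and 97.3 to 258 in KO. The part of dendritic cells in the result was not tested. Of 21 tested classical activation genes, *Il23a*, a cytokine subunit, rose (2.57 ± 0.66, 0.0403), and 2 fell, the factor *Irf5* (-1.07 ± 0.20, 0.0118) and the endotoxin receptor *Tlr4* (-1.10 ± 0.30, 0.0472). Of 14 phagocyte lysosome genes 1 rose, *Gpnmb*, a glycoprotein also of pigment cells (2.61 ± 0.57, 0.0218), and 3 fell, led by the cholesterol carrier *Npc2* (-0.94 ± 0.17, 0.0104) and progranulin, *Grn* (-1.18 ± 0.22, 0.0125). Of 11 heme and iron handling genes 1 rose, the heme-binding *Hpx* (2.59 ± 0.56, 0.0218), and 3 fell, led by the biliverdin reductases *Blvra* (-0.997 ± 0.14, 0.00344) and *Blvrb* (-0.83 ± 0.16, 0.0145).

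The next comparison asks how macrophage genes stood in skin without the deletion, by its label, after ZnO NPs. In skin labelled WT+ZnO NPs against WT, 9 of the 9 genes fell and 0 rose, and all lay below WT without overlap. Of all genes tested, 22.1% were lower and 20.8% higher, and 59.4% did not overlap in either direction, so differences were common here. The median log2 fold change of the 9 was -4.17, with a range of -8.45 to -2.70, beside 0.06 over all genes. The count was also 9 with Y-linked transcripts as a covariate, with 3896 calls over all genes in place of 8085. That covariate can be fitted only through KO replicate 1 and KO+ZnO NPs replicate 1. All libraries labelled WT+ZnO NPs and no WT library hold those transcripts, so the setting cannot separate sex from treatment here. The count was 9 in all of the 20 alternatives except the requirement of at least 10 counts in every library, which *Chil3* does not meet and which gave 8.

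Genes of the wider lists passed mostly in the lower direction in the same comparison. Of 25 core macrophage genes 23 fell and 0 rose (median log2 fold change -3.55), led by *Fcgr1* (-6.32 ± 0.38, edgeR adjusted p 1.22e-05) and *Spi1*, which encodes PU.1 (-3.79 ± 0.28, 1.73e-05). Of 16 resident dermal macrophage genes 15 fell (median -3.99), among them *Folr2* (-5.98 ± 0.57, 4.64e-05) and *Timd4* (-4.98 ± 0.53, 7.39e-05). Of the 20 alternative activation genes 13 fell and 1 rose (median -1.31). The scavenger receptor *Msr1* fell by 6.18 ± 0.65 (7.19e-05) with *Stat6*, and the factor *Egr2* rose by 1.74 ± 0.39 (0.00484). Of the 21 classical activation genes 10 fell and 0 rose (median -0.91), led by *Cd40*, a receptor for T cell help (-3.34 ± 0.24, 1.73e-05), and *Tlr4* (-3.65 ± 0.33, 3.64e-05). Of the 15 for ligands and recruitment 12 fell (median -2.20), led by *Plac8* (-5.34 ± 0.44, 2.7e-05) and *Csf1*, and *Cx3cl1* rose by 0.93 ± 0.24 (0.0102). Of the lysosome genes 12 of 14 fell (median -1.52), led by *Npc2* (-2.13 ± 0.17, 2.68e-05) and *Grn* (-2.48 ± 0.23, 4.14e-05). Of the heme and iron genes 7 of 11 fell (median -1.77), led by *Blvrb* (-1.78 ± 0.17, 4.29e-05) and the phagosome metal transporter *Slc11a1* (-4.25 ± 0.44, 6.73e-05).

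In KO skin, ZnO NPs went with lower levels as well. This comparison shares the KO libraries with that of KO against WT, as the first 2 share the WT libraries. In KO+ZnO NPs against KO, 8 of the 9 genes fell and 0 rose, and *Retnla* did not pass. All 9 lay below KO without overlap. Of all genes tested 8.09% were lower and 6.57% higher, and 34.7% did not overlap in either direction. The median log2 fold change of the 9 was -2.14, with a range of -4.55 to -1.45, beside 0.01 over all genes. In the libraries without Y-linked transcripts, which are KO replicates 2 and 3 and KO+ZnO NPs replicates 2 and 3 in this comparison, 7 passed and *Clec10a* no longer did. The count was 3 without KO replicate 2, where *Cd163*, *Mrc1*, *Chil3*, *Lyz2* and *Clec10a* were lost, and 3 in edgeR on only the 6 libraries compared. Calls over all genes went from 2759 to 451 and 571 in these settings. *Csf1r* and *Adgre1* passed under every one of the 22 alternatives.

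Here 21 of 25 core macrophage genes fell and 0 rose (median log2 fold change -1.85), led by *Spi1* (-1.94 ± 0.25, edgeR adjusted p 0.00495) and the phagocyte receptor *Sirpa* (-1.86 ± 0.25, 0.00519). Resident dermal macrophage genes fell in 9 of 16 (median -1.56), led by the lectin *Cd209d* (-3.11 ± 0.58, 0.0109) and the scavenger receptor *Colec12* (-1.42 ± 0.31, 0.0174). Of alternative activation genes 7 of 20 fell (median -1.01), led by *Pdcd1lg2* (-4.66 ± 0.66, 0.00556), which had risen in KO, and *Mgl2*. *Pdcd1lg2* had few reads, with 23, 17 and 11 counts in WT, 55, 213 and 96 in KO and 7, 1 and 5 in KO+ZnO NPs. Classical activation genes fell in 9 of 21 (median -1.04), led by *Cd40* (-1.58 ± 0.22, 0.00556) and *Tlr2*, a receptor for bacterial lipoproteins (-1.99 ± 0.38, 0.0112). Of ligands and recruitment genes 9 of 15 fell (median -1.47), led by *Csf1* and the monocyte receptor *Ccr2* (-2.88 ± 0.52, 0.00979). Lysosome genes fell in 9 of 14 (median -0.999), led by cathepsin B, *Ctsb* (-1.32 ± 0.24, 0.00934), and legumain, *Lgmn* (-1.61 ± 0.33, 0.0139). Heme and iron genes fell in 3 of 11 (median -0.76), led by *Hpx* (-3.86 ± 0.60, 0.00742), which had risen in KO, and *Slc11a1* (-2.11 ± 0.40, 0.0112). *Hpx* held 19, 47 and 46 counts in WT, 305, 162 and 160 in KO and 20, 9 and 11 in KO+ZnO NPs.

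Between the 2 groups given ZnO NPs, 0 of the 9 genes passed in edgeR in KO+ZnO NPs against skin labelled WT+ZnO NPs, where 2.13% of all genes were higher and 1.16% lower. All 9 log2 fold changes were positive, with a median of 1.12 beside 0.04 over all genes, though that of *Clec10a* was 0.12 ± 0.38 and took the other sign with library sizes alone or with Y-linked transcripts as a covariate. DESeq2 called 3 of the 9, with 2302 calls over all genes in place of 618. The groups overlapped for all but *Chil3*, while 23.7% of all genes did not overlap. Without KO+ZnO NPs replicate 3, the lowest library of its group for 7 of the 9 genes, edgeR called 3, which were *Adgre1*, *Csf1r* and *Lyz2*, while calls over all genes went from 618 to 1609. Of 25 core macrophage genes 3 were higher, led by *Fcgr2b*, the inhibitory IgG receptor (1.81 ± 0.36, adjusted p 0.0362), and *Spi1* (1.09 ± 0.25, 0.0472). The other lists held *Il34*, *Plac8* (1.96 ± 0.39, 0.0349), *Cd40* (1.38 ± 0.23, 0.029), the costimulator *Cd86* (1.55 ± 0.34, 0.0416) and *Il13ra1*, which pairs with Il4ra (1.45 ± 0.28, 0.0343), all higher, and 0 genes of any list were lower.

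The interaction of labelled genotype and ZnO NPs compares the 2 differences, under the same limit on skin labelled WT+ZnO NPs, whose *Cdc42* level goes against that label. It was called for 3 of the 9 genes, *Cd68*, *Retnla* and *Adgre1*, each with a log2 fold change nearer to 0 in KO skin, where 5.08% of all genes had a positive and 3.59% a negative interaction. All 9 values were positive, with a median of 2.08 on the log2 scale beside 0.02 over all genes. The values of those called were 2.11 ± 0.56 for *Cd68* (edgeR adjusted p 0.0441), 2.72 ± 0.67 for *Retnla* (0.0345) and 2.71 ± 0.59 for *Adgre1* (0.0237). The count was 0 with Y-linked transcripts as a covariate and also without WT replicate 2, WT+ZnO NPs replicate 3, KO replicate 1 or KO replicate 3. It was 1 without WT replicate 3, WT+ZnO NPs replicate 1 or KO+ZnO NPs replicate 1. Calls over all genes, 1633 in the fit of all libraries, were 125 with the covariate and 461 to 645 in the 4 settings without a library that gave 0. The size of the interaction ranged over the 19 alternatives from 1.496 to 2.504 for *Cd68*, 2.35 to 3.12 for *Retnla* and 2.46 to 3.21 for *Adgre1*. Positive interactions were called for 6 of 25 core macrophage genes, 7 of 16 resident dermal macrophage genes, 2 of 20 alternative and 3 of 21 classical activation genes, 1 of 15 ligand and recruitment genes, 4 of 14 lysosome genes and 4 of 11 heme and iron genes, with a negative one for 1 of the last. Among them *Fcgr1* (4.15 ± 0.46, 0.00186), *Aif1* (2.09 ± 0.37, 0.012), *Timd4* (4.19 ± 0.68, 0.00945), *Folr2* (4.11 ± 0.69, 0.0103) and *Plac8* (5.14 ± 0.55, 0.00169) had positive interactions. So did *Msr1* (3.57 ± 0.77, 0.0233), *Tgm2*, a transglutaminase (1.85 ± 0.38, 0.0203), *Cd40* (1.76 ± 0.31, 0.0122), *Tlr4* (2.06 ± 0.42, 0.0198), *Npc2* (1.56 ± 0.24, 0.00714), *Grn* (1.495 ± 0.31, 0.0205), *Blvra* (1.27 ± 0.20, 0.00881) and *Blvrb* (1.41 ± 0.23, 0.00946). *Hpx* had a negative one (-4.23 ± 0.80, 0.015).

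**Figure D3:**
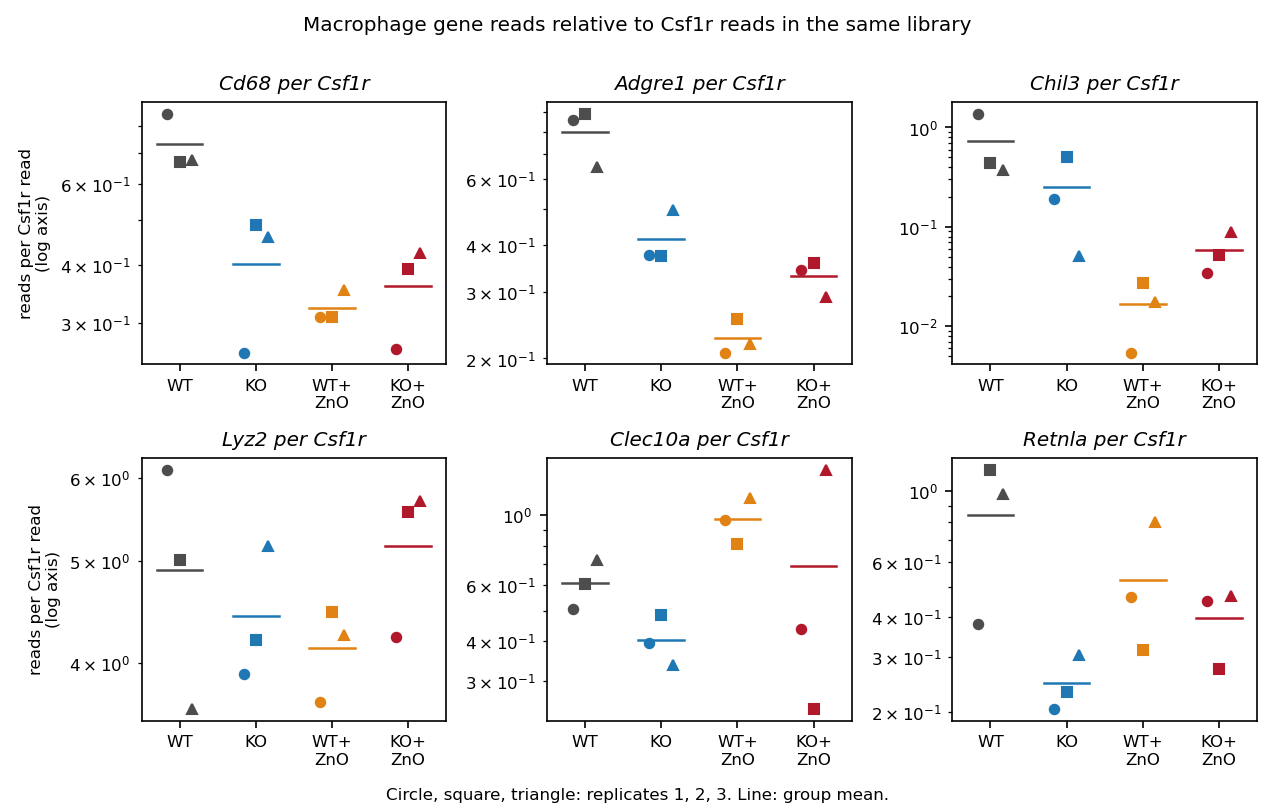
Reads of 6 genes divided by the *Csf1r* reads of the same library, on log axes with a scale for each panel, with circles, squares and triangles for replicates 1, 2 and 3 and lines for group means. For *Adgre1* the 3 WT libraries lie at 0.646 to 0.891, above all others, while for *Lyz2* the 4 groups overlap between 3.62 and 6.10.

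A ratio within a library does not depend on the scaling between libraries, so the 9 genes were also set against *Csf1r* reads, as a description. *Lyz2* kept to 3.62 to 6.10 reads per *Csf1r* read over all 12 libraries, with every group overlapping. *Adgre1* was at 0.646 to 0.891 in WT, 0.375 to 0.494 in KO, 0.292 to 0.359 in KO+ZnO NPs and 0.207 to 0.255 in skin labelled WT+ZnO NPs, without overlap between any groups. *Cd68* was at 0.668 to 0.848 in WT and lower in every other library, at 0.259 to 0.488 in KO, 0.264 to 0.425 in KO+ZnO NPs and 0.308 to 0.354 in skin labelled WT+ZnO NPs. *Chil3* spanned the widest range, from 0.377 to 1.36 in WT to 0.0516 to 0.509 in KO, 0.0344 to 0.0887 in KO+ZnO NPs and 0.00546 to 0.0276 in skin labelled WT+ZnO NPs. The 9 genes thus did not fall in equal proportion.

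*Clec10a* and *Mgl2* were higher relative to *Csf1r* in skin labelled WT+ZnO NPs than in WT, although their levels were lower, and overlapped between KO and KO+ZnO NPs. *Clec10a* was at 0.504 to 0.723 reads per *Csf1r* read in WT and at 0.812 to 1.13 in skin labelled WT+ZnO NPs, and *Mgl2* was at 0.0969 to 0.186 and 0.313 to 0.441. In KO and KO+ZnO NPs *Clec10a* was at 0.337 to 0.484 and 0.245 to 1.38, and *Mgl2* at 0.258 to 0.398 and 0.203 to 0.51. *Retnla* was at 0.380 to 1.17 in WT and 0.205 to 0.304 in KO, without overlap, and at 0.314 to 0.803 in skin labelled WT+ZnO NPs and 0.273 to 0.468 in KO+ZnO NPs. *Ptprc*, the CD45 antigen of all immune cells, overlapped between the 4 groups at 0.308 to 0.781.

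**Figure D4:**
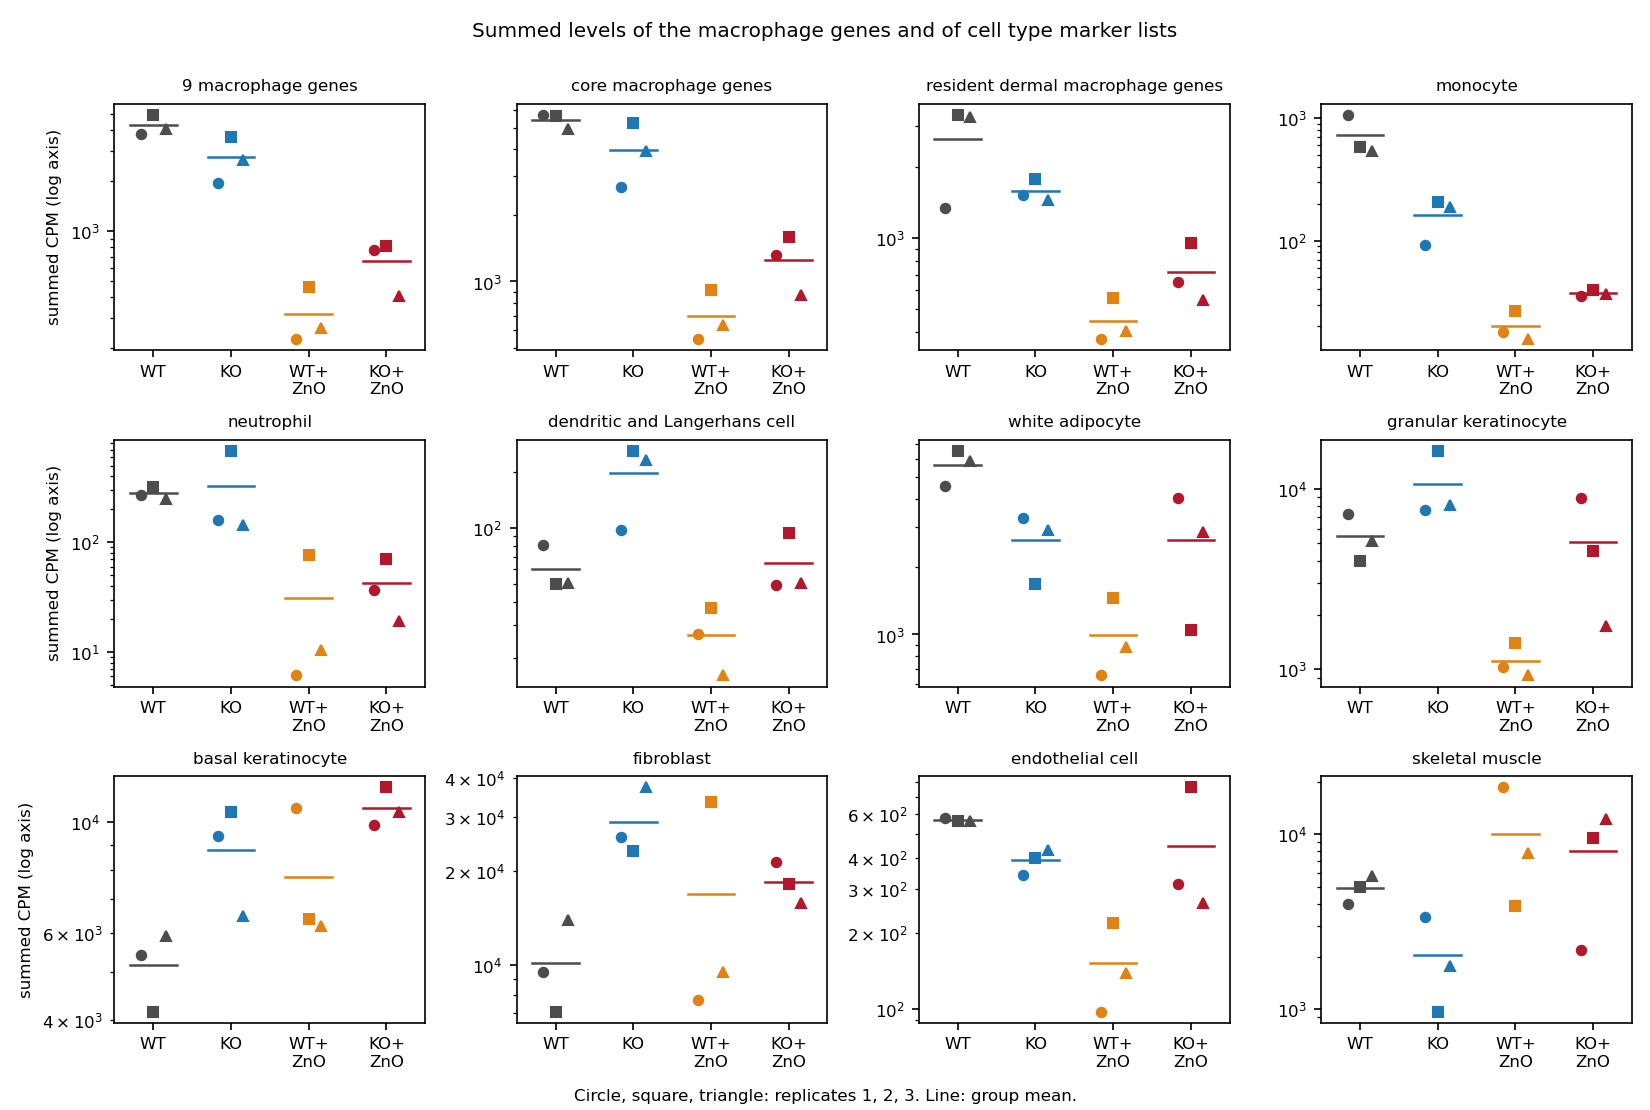
Summed CPM of the 9 macrophage genes, of other macrophage lists and of marker lists of other cell types in the 12 libraries, on log axes with a scale for each panel, with symbols for replicates and lines for group means as in the other plots. The 9 genes sum to 3818 to 4945 CPM in WT, 1948 to 3665 in KO, 409.9 to 809.7 in KO+ZnO NPs and 225 to 461 in skin labelled WT+ZnO NPs.

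Markers of other cells also differed between groups, some in the same direction as the macrophage genes and some not. The 9 genes together made up 3818 to 4945 CPM in WT and 225 to 461 in skin labelled WT+ZnO NPs. Over the same libraries *Ptprc* went from 166 to 227 CPM to 12.6 to 33.6, monocyte markers from 538 to 1064 to 15.7 to 26.5 (4 of 4 lower by the test), dendritic and Langerhans cell markers from 49.7 to 80.5 to 16.1 to 37.2 (4 of 7 lower), endothelial markers from 559 to 577 to 97.3 to 219, and granular keratinocyte markers from 3984 to 7247 to 926 to 1400. Basal keratinocyte markers went the other way, from 4162 to 5899 CPM to 6177 to 10700. Skeletal muscle markers, at 4024 to 5788 and 3895 to 18550, overlapped. So did the summed fibroblast markers, at 7049 to 13900 and 7678 to 33420, but of the 6 genes in that list *Dcn* and *Pdgfra* fell, from 1801 to 2244 CPM to 268 to 881 and from 180.4 to 304 to 31.6 to 87.0, and the collagen gene *Col1a1* rose by 1.69 ± 0.59 on the log2 scale (edgeR adjusted p 0.0394). Hair follicle markers of the growth phase, 4 keratins and trichohyalin, were at 3.83 to 6.63 CPM in WT, 870 to 4756 in skin labelled WT+ZnO NPs, 14.4 to 11560 in KO and 185 to 8363 in KO+ZnO NPs. In KO+ZnO NPs, where the 9 genes summed to 409.9 to 809.7 CPM against 1948 to 3665 in KO, *Ptprc* was at 27.5 to 30.3 against 82.0 to 184. Basal keratinocyte markers there were at 9860 to 11750 CPM against 6487 to 10500, and endothelial markers were at 264 to 765 against 341 to 431. Monocyte markers were at 35.2 to 39.4 against 92.8 to 206, with 3 of 4 lower by the test. Skeletal muscle markers were at 2177 to 12260 against 971.5 to 3385, with 2 of 6 higher. Granular keratinocyte markers were at 1733 to 8938 against 7692 to 16210, with 0 of 6 called. Fibroblast markers were at 15750 to 21470 against 23170 to 37280, with 1 of 6 lower, and dendritic and Langerhans cell markers at 49.6 to 93.7 against 97.3 to 258, with 3 of 7 lower. In KO against WT, fibroblast markers were at 23170 to 37280 CPM against 7049 to 13900 and endothelial markers at 341 to 431 against 559 to 577. Basal keratinocyte markers were at 6487 to 10500 against 4162 to 5899 and granular ones at 7692 to 16210 against 3984 to 7247, with 0 called in these 4 lists. Skeletal muscle markers were at 971.5 to 3385 against 4024 to 5788, with 1 of 6 lower, and 5 of 5 hair follicle markers were higher. The part of these cell types, and of the share of each library that they take, in the macrophage results was not tested.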

How the data were processed

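RNA from mouse skin was sequenced in 12 libraries, 3 for each of 4 groups taken from the sample labels. What the authors deposited are raw counts, whole numbers per gene in each library. The study's methods name STAR and HTSeq, while the submitters' processing notes name HISAT2 2.0.5 and mm10; which aligner made these counts, and the strand setting of the counting, are not settled by the sources used here. The table held 52636 genes, of which 52403 were named through GENCODE M21, and 0 entries that name no gene. Replicates differed by more than sampling noise (chi-square per degree of freedom 37.4 to 162), so all were kept. The study calls the 3 libraries of a group biological replicates. The p-values weigh differences between groups against the spread between replicates, estimated over all 12 libraries.

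Tests used the quasi-likelihood test of edgeR 4.0.16 in R 4.3.3 on these counts, with normalization by TMM and the package's filter on low counts. All 12 libraries entered a single fit with a coefficient for each group (common dispersion 0.109), and p-values were adjusted by Benjamini and Hochberg's method over 18822 genes. Genes were called at an adjusted p below 0.05. Levels are CPM after TMM scaling. Standard errors are approximate, being derived from the F statistic. Alternatives were DESeq2 1.42.0, edgeR on the 6 libraries compared, RLE factors or library size in place of TMM, no filter, at least 10 counts per library throughout, the replicate number as a block, Y-linked transcripts as a covariate, only libraries without them, and leaving out each library. Leaving out all libraries labelled WT+ZnO NPs was added after seeing the data. Gene by gene, only the 9 genes were followed over the alternatives, so calls of partner and listed genes near the threshold were not checked in this way. The 9 genes and the 7 lists (124 genes) were chosen with earlier results of these data known. Named beside the 9 were *Cdc42*, 9 partner genes (ligands, copies, upstream and downstream genes), and from each list and comparison up to 2 called genes in each direction with the smallest adjusted p. The self-test on simulated counts ran the same steps. A promoter motif was searched on both strands within 250 bases before the RefSeq start. The marker *Krt85* was left out of the hair follicle list. Some genes that were chosen with the others are not reported here.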

Additional observations from a re-analysis of the deposited data

Results flagged for a closer look

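The difference between skin labelled WT+ZnO NPs and WT was not the same as that between KO+ZnO NPs and KO for *Cd68*, *Retnla* and *Adgre1*, by the interaction term of the edgeR fit. Genotype, sex and treatment cannot be told apart in skin labelled WT+ZnO NPs, so this is a contrast between labels. The interaction of *Cd68* was 2.106 on the log2 scale (adjusted p 0.0441), from a fall of 4.46 in skin labelled WT+ZnO NPs against WT and of 2.36 in KO+ZnO NPs against KO. That of *Retnla* was 2.716 (0.0345), with log2 fold changes of -4.17 and -1.45, and that of *Adgre1* was 2.71 (0.0237), with -5.06 and -2.35. For all 3 genes every KO library lay below every WT library among the mice given the vehicle, so the 2 differences are taken from unequal levels. The interaction of *Cd68* was called in 9 of 19 alternatives (adjusted p 0.00419 to 0.229), that of *Retnla* in 9 (0.00106 to 0.127) and that of *Adgre1* in 14 (0.000258 to 0.117). With Y-linked transcripts as a covariate 0 of the 3 were called, with interactions of 1.496 for *Cd68*, 2.79 for *Retnla* and 2.65 for *Adgre1*.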

How the results depend on the processing

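The fall in skin labelled WT+ZnO NPs against WT was called for 9 genes in its 20 alternatives, except for 8 with at least 10 counts required in every library. For KO against WT (1 gene) the count was 2 with DESeq2, 2 in edgeR on the 6 libraries compared, 0 in the libraries without Y-linked transcripts and 0 to 2 when libraries were left out in turn: 0 without WT replicate 2, WT replicate 3, KO replicate 1 or KO replicate 3, and 2 without KO+ZnO NPs replicate 3. For KO+ZnO NPs against KO (8) it was 3 on the 6 libraries compared and 3 to 9 with a library left out, 3 of them without KO replicate 2, and calls over all genes went from 2759 to 571 on the 6 libraries and to 451 without that replicate. For KO+ZnO NPs against skin labelled WT+ZnO NPs (0) it was 3 with DESeq2 and 0 to 3 with a library left out, 3 of them without KO+ZnO NPs replicate 3, where calls over all genes went from 618 to 1609. For the interaction (3) it was 6 with DESeq2, 0 with Y-linked transcripts as a covariate and 0 to 3 with a library left out. *Clec10a* in KO+ZnO NPs against skin labelled WT+ZnO NPs changed sign to -0.014 with library sizes alone and to -0.065 with the covariate, and ranged from -0.22 to 0.38 with a library left out. The cause of these changes was not tested.

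Replicate numbers did not pair the mice: deviations of same-numbered libraries correlated by -0.343 to 0.429, with a median of 0.0337, against -0.0161 for other numbers. With a replicate block the interaction was called for 5 genes. The block changed no other count of the 9 genes. Over all genes, calls in KO+ZnO NPs against skin labelled WT+ZnO NPs went from 618 to 2302 with DESeq2 and to 1 with the Y-linked covariate, in KO against WT from 1540 to 3036 and 962, in KO+ZnO NPs against KO from 2759 to 4293 and 2412, and for the interaction from 1633 to 3151 and 125. In skin labelled WT+ZnO NPs against WT they went from 8085 to 3896 with the covariate.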
